A study of Bos taurus with 16 samples.

Results

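The 10 genes described here hold the mature oocyte in arrest and drive cells into and out of M phase: MOS, FBXO43, WEE1, WEE2, CDK1, CDC25C, PLK1, AURKA, CDC20 and FZR1. They were chosen by name among the 27393 loci of the deposited read table, and all 10 were found. Only WEE2 was listed at more than 1 locus, and the locus with the highest mean level was used for it. Of the 10, 9 had enough reads for the tests across stages and FZR1 did not.

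In vertebrates the mature oocyte waits at the metaphase of meiosis II with the kinase CDK1 active. MOS starts a MAP kinase cascade that keeps this arrest, and the product of FBXO43, the protein EMI2, holds back the anaphase-promoting complex (APC/C), the ubiquitin ligase that ends M phase. WEE1 and its oocyte counterpart WEE2 switch CDK1 off by phosphorylation, CDC25C removes that phosphate, PLK1 and AURKA promote mitotic entry and the building of the spindle, and CDC20 and FZR1 (CDH1) activate the APC/C. The cleavage divisions of the early embryo run on RNA stored in the oocyte until embryonic genome activation (EGA).

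The samples were single bovine oocytes and single embryos that matured or developed in vivo, with 2 samples at each of 8 stages and no treatment: mature oocytes (MII), 2-, 4-, 8- and 16-cell embryos (2C, 4C, 8C and 16C), early morulae (EM), compact morulae (CM) and blastocysts (BL). The labels give neither breed nor age of the cows. The study places EGA between 4C and 8C, so the 6 samples of MII, 2C and 4C were taken as before EGA and the 10 samples from 8C on as after it. The authors extracted the RNA of each sample, amplified it over several rounds, sequenced it on the SOLiD platform, counted reads per locus and scaled every sample by its own size factor. Levels are given in CPM, reads on a locus per 1e6 reads of the sample, computed from the reads recovered from the deposited values. CPM takes no account of gene length, so levels were compared between samples and not between genes. Orders of stages and overlaps of replicates are given in CPM and can differ on the deposited scale.

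Between 607672 and 3379426 reads per sample were recovered (median 1347534), and the smallest number taken as detectable, 3 reads, stood for 0.888 to 4.94 CPM. Replicates of a stage correlated across loci at Pearson's r of 0.845 to 0.948, lowest at 8C, and no pair was alike within counting noise. The chi-square of replicate reads per locus was highest at 2C (194), against 20.5 in BL to 81.8 in MII at the other stages. The 2C embryos had 1502413 and 3379426 reads. The 8C embryos differed in oocyte RNA. The summed level of 9 oocyte markers was 1464 CPM in 8C replicate 2 and 26.0 CPM in 8C replicate 1, against 3060 to 10078 CPM before EGA, with H1FOO, the oocyte linker histone, at 1400 and 17 reads. H1FOO made up 92.0% of the sum in 8C replicate 2 and 75.7 to 96.4% before EGA, and the other 8 markers summed to 117 CPM in 8C replicate 2 and 4.95 CPM in 8C replicate 1, against 304 to 898 CPM before EGA. Tests from 4C to 8C are therefore given with and without each embryo. Among the oocyte markers BMP15 had no read in any sample, and among 10 blastocyst markers, whose sum was 1559 to 1668 CPM in BL, CDX2 had 1 read in all. That sum was 24.1 to 49.7 CPM before EGA and 171 to 1668 CPM after it. KRT8, KRT18, GATA3 and TFAP2A had their most reads in BL. IFNT had no read in BL and 35 and 19 reads in 16C, and SLC2A3 had 412 and 1099 reads in EM against 380 and 229 in BL. The sum of 11 cumulus and granulosa markers, most of it STAR and HAS2, was 564 to 1986 CPM before EGA and 382 to 873 CPM after it, while AMH and FOXL2 had no read. Of 6 sperm markers PRM1, PRM2, ODF1 and AKAP4 were at 0 and the sum did not exceed 9.81 CPM. The part of these markers in the results was not tested.

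Tests used limma on deposited values as log2(value + 1), the p-values were adjusted over all loci tested by the Benjamini-Hochberg method, and a gene was called changed at an adjusted p below 0.05. For genes with few reads, fold changes on this scale depend on the 1 added to each value. They can lie below or above the change in CPM. The deposited scale and CPM differ most for the oocyte: between MII and 2C the median locus rose by 0.15 on the deposited log2 scale and by 0.78 when samples were scaled to total reads. Replicates were separate oocytes or embryos, and whether they came from separate cows is not stated, so p-values measure the spread between these samples.

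**Figure D1:**
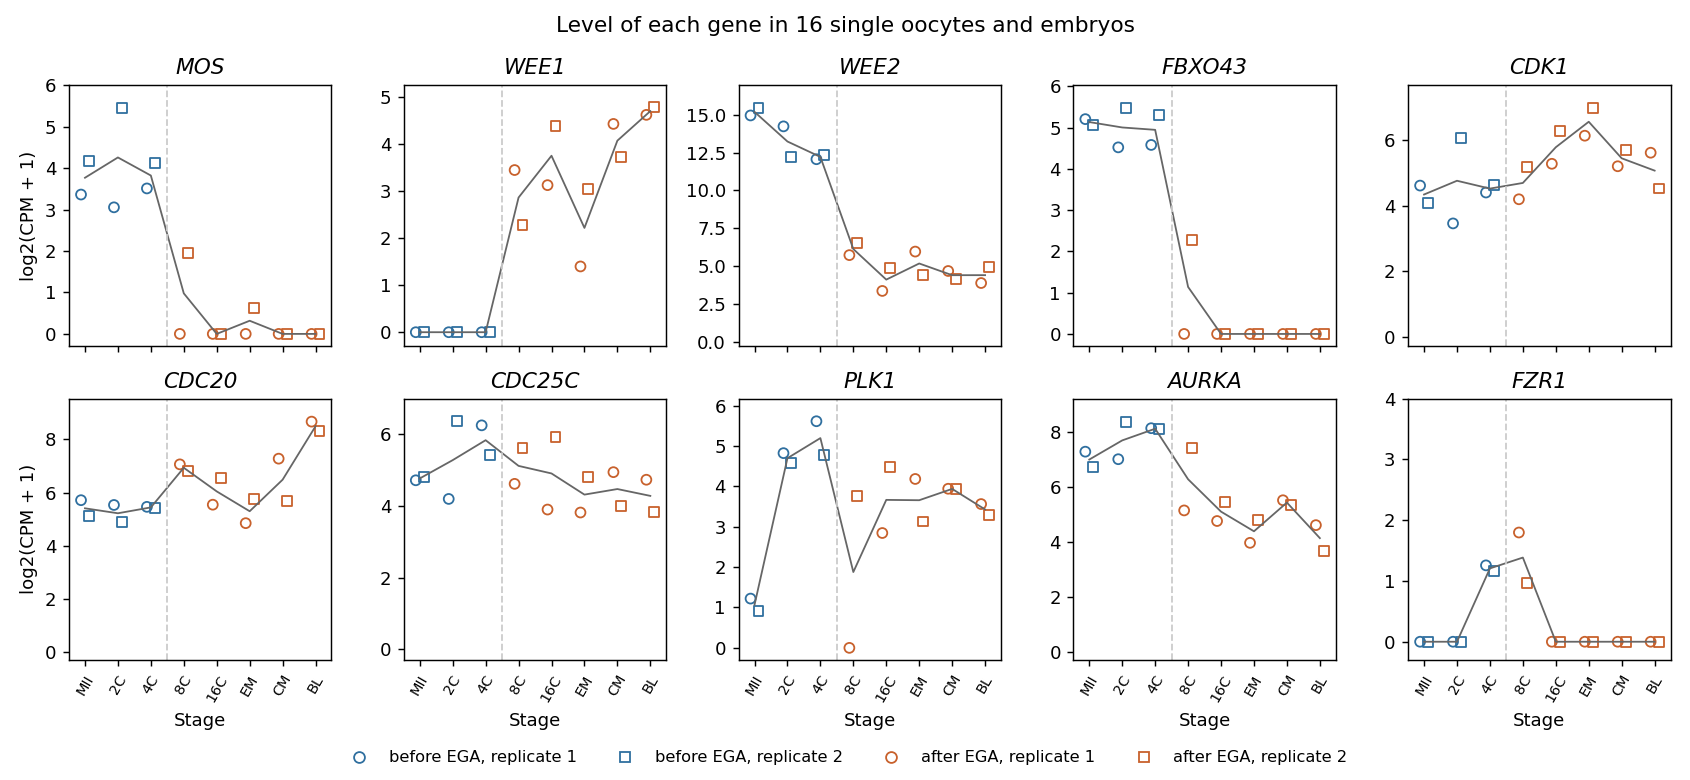
Level of each of the 10 genes, as log2(CPM + 1), in the 16 samples by stage, with circles and squares for replicates 1 and 2, blue before and orange after EGA, a line through the stage means and a dashed line between 4C and 8C. MOS and FBXO43 lie near 0 after EGA, WEE1 lies at 0 before it, WEE2 falls from MII on, and CDK1 is highest in EM.

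Over the 8 stages 7 of the 9 tested genes changed: MOS, FBXO43, WEE2, WEE1, AURKA, CDC20 and PLK1. The stage effect of MOS was lost in a one-way F on CPM with a permutation test (p = 0.150). Among all 9670 loci tested 66.7% changed, so the share of changed genes was near that of all loci. CDK1 (adjusted p = 0.541) and CDC25C (adjusted p = 0.140) did not pass. Of the 7 steps between neighbouring stages, only the step from 4C to 8C held calls by limma. There 7 of 9 genes changed, beside 36.8% of all loci. WEE1 and CDC20 were higher at 8C, where 17.7% of loci were called higher, and MOS, FBXO43, WEE2, PLK1 and AURKA were lower, where 19.1% were called lower. Without 8C replicate 1 only 3 of the 9 were called, WEE1 as higher (12.9% of loci) and FBXO43 and WEE2 as lower (11.7%), and without 8C replicate 2 the same 7 genes were called. In the other 6 steps none of the 9 genes was called by limma, beside 1.42% of loci from MII to 2C, 0% from 2C to 4C, 0.858% from 8C to 16C, 0.103% from 16C to EM, 0% from EM to CM and 4.42% from CM to BL. At an unadjusted p below 0.05 those steps held 2, 0, 1, 2, 3 and 2 of the genes, and edgeR called 0 of them in each step. DESeq2 called WEE2 and PLK1 from MII to 2C and CDC20 from CM to BL. By limma without 8C replicate 1 WEE2 (adjusted p = 0.0493) and PLK1 (0.0271) were called from MII to 2C and AURKA (0.0459) from 8C to 16C, and without 8C replicate 2 WEE2 (0.0495) and PLK1 (0.0293) were called from MII to 2C.

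MOS and FBXO43, the genes of the arrest itself, were present in the oocyte and in 2C and 4C embryos and nearly absent afterwards. The MOS locus (XLOC_015173) had 9.31 and 17.1 CPM in MII, 7.32 and 43.2 CPM in 2C and 10.4 and 16.6 CPM in 4C. After EGA it had 0 and 2.89 CPM in 8C and 0 and 0.554 CPM in EM, which are 3 reads and 1 read, and no read in 16C, CM and BL. Each sample before EGA lay above each sample after it. The order of stage means in CPM was 2C, 4C, MII, 8C, EM and then the stages at 0. Only MII and 8C were neighbours in it whose replicates did not overlap. On the deposited scale MOS had 19.4 and 41.5 in MII and 13.8 and 21.9 in 4C. In these samples fewer cells holding a transcript and less of it per cell cannot be told apart.

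FBXO43 (XLOC_015004) followed the same course. Its level was 35.9 and 32.4 CPM in MII, 22.0 and 43.8 CPM in 2C and 22.9 and 38.7 CPM in 4C. It was 0 and 3.85 CPM in 8C, the latter from 4 reads, and no read was found in the 8 samples of 16C, EM, CM and BL. In CPM the stages before EGA overlapped with each other and none of them overlapped with 8C. On the deposited scale MII (74.8 and 78.7) lay above 2C (26.1 and 54.0) and 4C (30.4 and 51.2). The change from MII to 4C, -0.94 (SE 0.83), did not pass (limma adjusted p = 0.521). The mean before EGA, 32.6 ± 8.72 CPM (SD, n = 6), was at least 8.88-fold higher than the floor of 3 reads per library in BL and at least 15.9-fold higher than that in EM. For MOS, with 17.3 ± 13.3 CPM (SD, n = 6) before EGA, these limits were at least 4.71-fold in BL and at least 6.64-fold in CM.

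From 4C to 8C FBXO43 fell by 4.10 on the log2 scale (SE 0.83, limma adjusted p = 0.0018) and MOS fell by 3.13 (SE 0.91, limma adjusted p = 0.015). Without 8C replicate 1 the change of MOS was -2.05 (adjusted p = 0.142) and without 8C replicate 2 it was -4.21 (adjusted p = 0.00475). The call of MOS was also lost without 4C replicate 2 (adjusted p = 0.0970), by edgeR (0.0901) and DESeq2 (0.151) and with the 2 stages alone (0.116), within a range of 0.00475 to 0.151 over the alternatives. The call of FBXO43 was lost with the 2 stages alone (adjusted p = 0.0886, over a range of 3.4e-04 to 0.0886). The change was -2.86 without 8C replicate 1 (adjusted p = 0.0206) and -5.34 without 8C replicate 2 (3.4e-04). For FBXO43 the comparison of all samples before and after EGA showed that it fell by 5.38 (SE 0.45, limma adjusted p = 1.8e-09), where 29.9% of 6910 loci were called lower and the median locus rose by 0.23. When samples were scaled to total reads 41.5% of loci were called higher and 23.1% lower in this comparison, against 36.9% and 29.9%, and the median locus rose by 0.67. MOS had too few reads to enter that model. Its mean log2 value was lower by 4.27 after EGA by an exact two-sided permutation test over the 16 samples (p = 0.00025, the smallest this test can give). Lower levels after EGA without any overlap were seen for 3 genes, MOS, FBXO43 and WEE2, and for 8.68% of the 9670 loci tested over the stages.

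WEE2, the oocyte kinase that inhibits CDK1, had the largest fitted fall of the group. MOS and FBXO43 had no read in several later stages, so only lower limits can be given for their falls there. Its main locus (XLOC_054266) had 31801 and 44153 CPM in MII, which made it the locus with the fourth and the third highest number of reads in these oocytes. It had 19283 and 4821 CPM in 2C and 4280 and 5287 CPM in 4C. At 8C 52.0 and 91.4 CPM were left, and from 16C to BL the samples lay between 9.27 and 61.3 CPM. The replicates of MII lay above those of 2C, those of 2C and 4C overlapped, and those of 4C lay above those of 8C. Both 8C embryos lay above the samples of 16C, CM and BL and overlapped with EM, and the change from 8C to 16C did not pass (limma adjusted p = 0.144, unadjusted p = 0.00859). From EM on each stage overlapped with the next in the order of means.

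Part of the fall of WEE2 came before EGA. Between MII and 4C it fell by 3.74 on the log2 scale (SE 0.73, limma adjusted p = 0.0097), and its CPM was 7.94-fold lower. In that comparison 2 of 9 genes were called, beside 8.68% of loci, WEE2 as lower (2.19% of loci) and PLK1 as higher. The change from MII to 2C, -2.85 (SE 0.73), did not pass (limma adjusted p = 0.061). The step from 4C to 8C was larger: WEE2 fell by 6.10 (SE 0.73, limma adjusted p = 4.0e-05), and its CPM was 66.7-fold lower. That change was -5.84 without 8C replicate 1 (adjusted p = 7.0e-04) and -6.36 without 8C replicate 2 (adjusted p = 2.3e-04). Over all samples the mean was 18271 ± 16728 CPM (SD, n = 6) before and 34.6 ± 25.9 CPM (SD, n = 10) after EGA, and the log2 value fell by 9.19 (SE 0.63, limma adjusted p = 1.3e-10). The call between 4C and 8C held in every alternative run (adjusted p up to 0.0361). That between MII and 4C was lost without MII replicate 2 (adjusted p = 0.0807), 4C replicate 1 (0.0936) or 4C replicate 2 (0.0711), within a range of 7.2e-05 to 0.0936. The tests from MII to 4C and from 4C to 8C share the 4C embryos.

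The other WEE2 locus (XLOC_053796) carried fewer reads and fell as well. It had 93.4 to 356 CPM in the samples before EGA, 0 and 19.2 CPM in 8C and at most 2.05 CPM in the 8 later samples. From 4C to 8C it fell by 5.11 (SE 1.13, limma adjusted p = 0.0031), with a change of -2.82 without 8C replicate 1 (adjusted p = 0.0365) and -7.40 without 8C replicate 2 (adjusted p = 9.9e-05). Between MII and 4C its change was -1.92 (SE 1.13, limma adjusted p = 0.305). Whether these 2 loci are parts of a single transcript was not tested.

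WEE1, the kinase of dividing somatic cells with the same action on CDK1, showed the opposite course. No read of WEE1 (XLOC_017528) was found in the 6 samples before EGA, where 3 reads would have been 0.888 to 2.08 CPM. Reads were present in each of the 10 samples after EGA, at 9.90 and 3.85 CPM in 8C, 7.73 and 19.7 CPM in 16C, 1.63 and 7.20 CPM in EM, 20.5 and 12.1 CPM in CM and 23.6 and 26.4 CPM in BL. The value of EM replicate 1 came from 2 reads and the others from 4 reads or more. BL lay above CM without overlap, and from CM down to EM each stage overlapped with the next in the order of means. The mean after EGA, 13.3 ± 8.68 CPM (SD, n = 10), was at least 8.42-fold higher than the mean floor of 3 reads per library before it. Of the 9670 loci tested over the stages, only 0.951% were without a read before EGA and with reads in every sample after it, and 14.1% were higher after EGA without overlap.

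WEE1 rose by 3.21 on the log2 scale from 4C to 8C (SE 0.77, limma adjusted p = 0.0050) and by 3.65 over all samples (SE 0.50, limma adjusted p = 2.0e-06), where 36.9% of loci were called higher. The size of these fitted changes depends on the pseudocount, since the earlier samples are at 0. From 4C to 8C the change was 2.48 without 8C replicate 1 (adjusted p = 0.0438) and 3.95 without 8C replicate 2 (adjusted p = 0.0027). With the 2 stages alone the call was lost (adjusted p = 0.0583, over a range of 0.0027 to 0.0583).

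The log2 difference of WEE1 minus WEE2 was also taken within each sample. Before EGA, where WEE1 was at 0, it holds the value of WEE2 alone, with the scaling of that sample. It was -16.0 and -16.7 in MII, -14.5 and -12.5 in 2C and -12.5 and -12.8 in 4C. It was -2.31 and -4.30 in 8C, -4.53 and -1.31 in EM and between -0.48 and 0.74 in 16C, CM and BL. The periods did not overlap. The mean was -14.17 ± 1.87 (SD, n = 6) before and -1.33 ± 1.81 (SD, n = 10) after EGA, a difference of 12.84. This is the sum of the rise of WEE1 and the fall of WEE2 given above, so the planned exact two-sided permutation test of it (p = 0.00025, the smallest it can give, and adjusted p = 0.0005 over 2 ratios) adds no evidence to theirs.

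**Figure D2:**
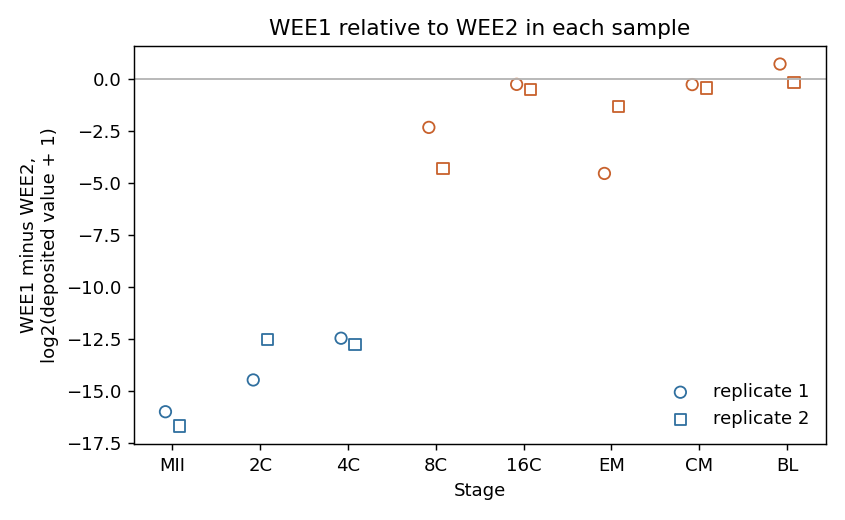
Log2(deposited value + 1) of WEE1 minus that of WEE2 in each sample by stage, with circles and squares for replicates 1 and 2, blue before and orange after EGA. The 6 samples before EGA lie between -16.7 and -12.5, and the 10 after it between -4.53 and 0.74.

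CDK1, the kinase on which WEE1, WEE2 and CDC25C act, had the smallest stage effect of the 9 genes tested by limma. In the one-way F on CPM with a permutation test CDC25C (F = 0.782, p = 0.576) and MOS (F = 2.09, p = 0.150) lay below CDK1 (F = 2.26, p = 0.139). The CDK1 locus (XLOC_047287) had 23.5 and 15.8 CPM in MII, 9.98 and 66.0 CPM in 2C, 20.1 and 24.0 CPM in 4C, 17.3 and 35.6 CPM in 8C, 37.9 and 77.3 CPM in 16C, 69.5 and 126 CPM in EM, 35.9 and 50.7 CPM in CM and 48.1 and 22.0 CPM in BL. In CPM EM was highest and MII lowest. The samples of EM lay above those of all stages but 16C in CPM, and those of 16C lay above MII, 4C and 8C. Each stage overlapped with the next in the order of mean CPM. On the deposited scale MII (48.9 and 38.3) lay above 4C (26.8 and 31.7). On that scale EM replicate 1 (65.7) lay below 2C replicate 2 (81.4) and CM replicate 2 (66.6). The mean was 26.6 ± 20.0 CPM (SD, n = 6) before and 52.1 ± 32.2 CPM (SD, n = 10) after EGA, and the log2 change of 0.51 (SE 0.40) did not pass (limma adjusted p = 0.272). The change was 0.22 without 2C replicate 1 and 0.98 scaled to total reads, the lowest and the highest of the alternatives, and none passed (adjusted p of 0.0639 to 0.637).

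CDC25C, the phosphatase that frees CDK1 from the WEE kinases, differed between the replicates of most stages, and its stage effect did not pass. CDC25C (XLOC_064021) ranged from 17.3 to 81.1 CPM before EGA (median 34.5) and from 13.1 to 59.2 CPM after it (median 24.5), and each stage overlapped with the next in the order of means, from 4C as the highest to BL. Without 2C replicate 1 the stage effect passed (adjusted p = 0.0369, over a range of 0.0369 to 0.589). Its log2 value fell by 1.15 after EGA (SE 0.42, limma adjusted p = 0.020). The call was lost when samples were scaled to total reads (change -0.68, adjusted p = 0.186) and without 2C replicate 2 (0.0557) or 4C replicate 1 (0.0547), within a range of 0.0043 to 0.186.

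AURKA, the kinase of centrosomes and spindle poles, was high until 4C and low from 16C on. AURKA (XLOC_012411) had 156 and 105 CPM in MII, 129 and 336 CPM in 2C and 284 and 277 CPM in 4C. The 8C embryos had 34.6 and 171 CPM, and the samples of 16C, EM, CM and BL lay between 11.7 and 45.1 CPM. The embryo with 171 CPM was 8C replicate 2, which also held more oocyte marker RNA, and it was the single sample after EGA that overlapped with the samples before it. The mean was 214 ± 96.0 CPM (SD, n = 6) before and 43.7 ± 46.2 CPM (SD, n = 10) after EGA, and the log2 value fell by 3.02 (SE 0.47, limma adjusted p = 9.5e-06). With both 8C embryos left out it fell by 3.39 (SE 0.39, limma adjusted p = 3.6e-07). From 4C to 8C alone AURKA fell by 1.86 (SE 0.66, limma adjusted p = 0.037). That change was -0.86 without 8C replicate 1 (adjusted p = 0.365) and -2.86 without 8C replicate 2 (adjusted p = 0.0047). The call was lost without 4C replicate 1 (adjusted p = 0.134) or 4C replicate 2 (0.126) as well, by edgeR (0.117) and DESeq2 (0.0686), scaled to total reads (0.0572), without the filter (0.0637) and with the 2 stages alone (0.178), within a range of 0.0047 to 0.365.

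PLK1, the kinase that activates CDC25C and drives mitotic progression, was nearly absent from the oocyte and peaked in 2C and 4C embryos. PLK1 (XLOC_043018) had 1.33 and 0.876 CPM in MII, from 3 and 2 reads. It had 27.3 and 22.8 CPM in 2C and 47.9 and 26.4 CPM in 4C. After EGA it had 0 and 12.5 CPM in 8C, and 6.18 to 21.4 CPM in the 8 samples of 16C, EM, CM and BL. Both 2C and 4C lay above each later stage without overlap, and each later stage overlapped with the next in the order of means.

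PLK1 rose by 3.81 on the log2 scale from MII to 4C (SE 1.01, limma adjusted p = 0.031), where 6.48% of loci were called higher. Over all loci this comparison gave 627 called higher and 212 lower, and 1054 and 56 when samples were scaled to total reads. It then fell by 3.59 from 4C to 8C (SE 1.01, limma adjusted p = 0.012), and these tests share the 4C embryos. Over all samples before and after EGA the change was -0.72 (SE 0.71, limma adjusted p = 0.373). It was -0.34 without 4C replicate 1, -0.35 without 8C replicate 1, -1.16 without MII replicate 1, -1.22 without MII replicate 2, -0.34 scaled to total reads, -1.34 by edgeR and -1.17 by DESeq2, and no alternative passed (adjusted p of 0.0624 to 0.714). The rise was lost without MII replicate 1 (adjusted p = 0.0733), MII replicate 2 (0.161), 4C replicate 1 (0.202), 4C replicate 2 (0.111), BL replicate 1 (0.0541) or BL replicate 2 (0.0541) and without the filter (0.0504), within a range of 0.0055 to 0.202. The fall was -1.60 without 8C replicate 1 (adjusted p = 0.167) and -5.59 without 8C replicate 2 (adjusted p = 3.2e-04). It was also lost without 4C replicate 1 (0.0925), by edgeR (0.0617) and with the 2 stages alone (0.192), within a range of 3.2e-04 to 0.192. The stage effect of PLK1 (limma adjusted p = 0.034) was lost in 12 alternatives, among them leaving out either sample of MII, 2C, 4C, CM or BL, and reached 0.108 without 4C replicate 1.

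CDC20, the APC/C activator of metaphase, was highest in blastocysts and also higher in 8C than in 4C embryos. CDC20 (XLOC_051145) had 51.4 and 33.3 CPM in MII, 45.3 and 29.0 CPM in 2C and 43.1 and 41.8 CPM in 4C. It had 132 and 111 CPM in 8C, 45.6 and 92.2 CPM in 16C, 27.8 and 52.6 CPM in EM, 154 and 50.7 CPM in CM and 406 and 319 CPM in BL. BL lay above all other stages without overlap, 8C lay above MII, 2C, 4C, 16C and EM, and the samples of EM lay just below and just above the range of 29.0 to 51.4 CPM before EGA.

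CDC20 rose by 1.49 on the log2 scale from 4C to 8C (SE 0.54, limma adjusted p = 0.042), or 2.86-fold in CPM. That change was 1.22 without 8C replicate 1 (adjusted p = 0.183) and 1.76 without 8C replicate 2 (adjusted p = 0.0446). The call was lost in 10 alternatives, among them leaving out 4C replicate 1 (0.133), 4C replicate 2 (0.147), EM replicate 1 (0.0535) or EM replicate 2 (0.0538), within a range of 0.0237 to 0.183. The step from CM to BL, 3.54-fold in CPM and 1.84 on the log2 scale (SE 0.54), did not pass by limma (adjusted p = 0.069). Before against after EGA the change of 0.82 (SE 0.51) did not pass (limma adjusted p = 0.163), but it was 1.30 scaled to total reads (adjusted p = 0.0249) and 1.25 by DESeq2 (adjusted p = 0.0306), within a range of 0.0249 to 0.291.

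FZR1, the APC/C activator of late mitosis and G1 phase, was under the detection floor in all 16 samples. Its locus (XLOC_063800) had 7 reads in all, namely 2 and 2 reads in 4C and 2 and 1 reads in 8C, and none elsewhere. Without the filter the stage effect of FZR1 had a limma adjusted p of 0.0053 and a one-way F on CPM gave p = 0.0153 in a permutation test, both from these 7 reads, and no level of it was detectable at this depth. The log2 difference of CDC20 minus FZR1 was 5.48 ± 0.99 (SD, n = 6) before and 6.45 ± 1.33 (SD, n = 10) after EGA (exact two-sided permutation test, p = 0.139, adjusted p = 0.139 over 2 ratios), a difference set nearly by CDC20 alone.

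Set side by side, 8 of the 10 genes entered the model of the periods and 5 were called, beside 66.8% of loci. WEE1 was higher after EGA, and WEE2, FBXO43, AURKA and CDC25C were lower. CDK1, CDC20 and PLK1 did not pass. With both 8C embryos left out the number called was again 5. Scaled to total reads it was 5 as well, with CDC20 called as higher and CDC25C not called.

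**Figure D3:**
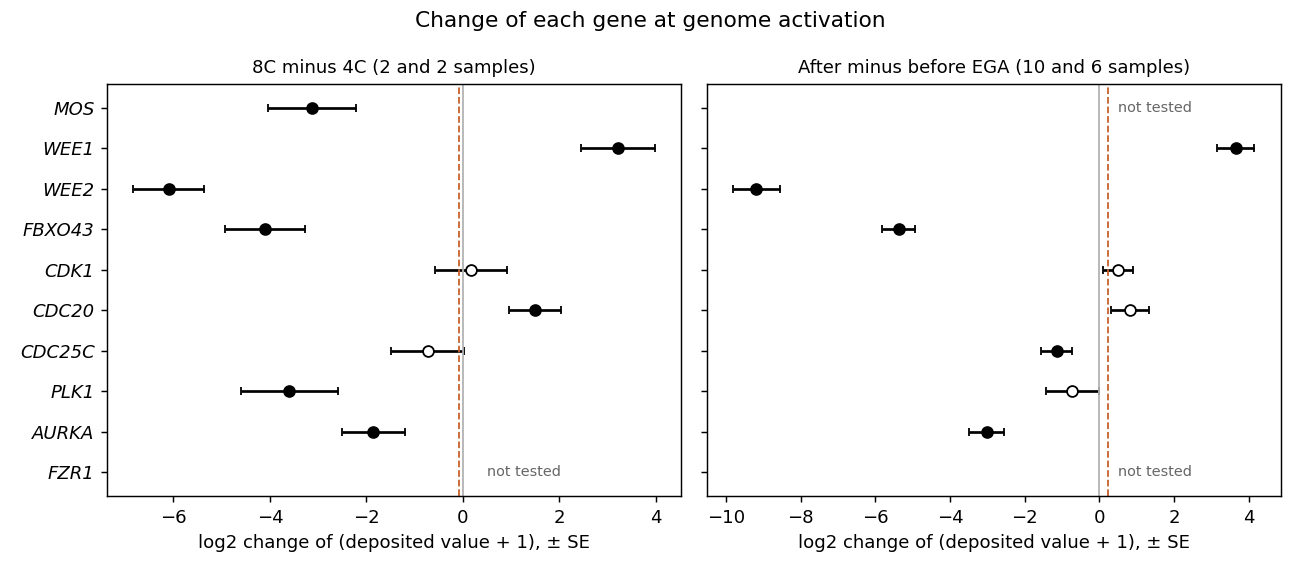
Change of each gene in log2(deposited value + 1) with its SE from limma, for 8C minus 4C (left, 2 and 2 samples) and for samples after minus before EGA (right, 10 and 6 samples). Filled points passed an adjusted p of 0.05, open points did not, and the dashed line is the median of all loci. WEE2 has the largest fitted fall in both panels and WEE1 the largest fitted rise. For genes with samples at 0 the size depends on the 1 added to each value.

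Other genes of the same machinery were taken from 6 lists with 75 genes, of which 70 were found by name. CCNB1, CCNB3, PPP2R2D, CAMK2G and ANAPC15 were not found. Of the 61 with enough reads 32 changed over the stages, beside 66.7% of all loci. Of 56 tested before against after EGA 11 were higher and 19 lower, beside 36.9% and 29.9% of all loci, with a median log2 change of -0.43 beside 0.23 for all loci. Scaled to total reads 14 were higher and 12 lower, beside 41.5% and 23.1% of all loci, with a median of 0.03 beside 0.67 for all loci. From 4C to 8C 5 of 61 were higher and 8 lower, beside 17.7% and 19.1% of all loci (median -0.10, beside -0.08 for all loci). These counts were 5 and 4 without 8C replicate 1, beside 12.9% and 11.7% of all loci, and 4 and 11 without 8C replicate 2, beside 18.1% and 20.2%. From MII to 4C 2 of 61 were higher, beside 6.48% of all loci (median -0.27, beside 0.15 for all loci). Scaled to total reads 6 were higher, beside 10.9% of all loci (median 0.43, beside 0.68 for all loci), and DESeq2 called 6. From MII to 2C limma and edgeR called none, beside 1.42% of all loci by limma, 8 had an unadjusted p below 0.05 and DESeq2 called 1. The 3 genes of each list with the smallest adjusted p over the stages are named here.

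Of the partners and switches of CDK1, 6 of 13 tested were lower after EGA (median -0.69). Scaled to total reads 1 was higher and 4 were lower (median -0.21). CKS1B, a small subunit of CDK complexes, fell by 3.41 on the log2 scale, from 14046 ± 6557 to 2012 ± 1966 CPM (SD, n = 6 and 10; limma adjusted p = 2.6e-05). In 8C replicate 2 CKS1B had 7455 CPM, and without that embryo the mean after EGA was 1408 CPM. In 2C replicate 1 it had 3138 CPM, and without that embryo the mean before EGA was 16228 CPM. CCNH, the cyclin of the CDK-activating kinase, fell by 2.44, from 98.8 to 26.1 CPM (limma adjusted p = 1.1e-05). PKMYT1, the membrane-bound relative of the WEE kinases, had 3.07 CPM before and 14.5 CPM after EGA (change 1.15, limma adjusted p = 0.071, over a range of 0.0064 to 0.148 over the alternatives) and was highest in CM.

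Of the Greatwall kinase and phosphatase genes, 4 of 11 were higher and 2 lower after EGA (median 0.12). Scaled to total reads 4 were higher and 1 lower (median 0.60). MASTL, the Greatwall kinase that restrains PP2A in M phase, fell by 3.17, from 28.9 to 4.37 CPM (limma adjusted p = 1.2e-04). PPP2CB and PPP2R2A, a catalytic and a regulatory subunit of PP2A, rose by 2.29 (limma adjusted p = 5.4e-04) and 1.27 (limma adjusted p = 0.0091), PPP2CB from 5.86 to 48.8 CPM and PPP2R2A from 32.6 to 108 CPM.

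Of the genes of the MOS and MAP kinase path and of egg activation, 2 of 7 were higher and 3 lower after EGA (median -0.84). Scaled to total reads 2 were higher and 2 lower (median -0.53). CPEB1, which controls the translation of stored mRNAs, fell by 6.13, from 118 ± 70.2 to 3.99 ± 10.2 CPM (SD, n = 6 and 10; limma adjusted p = 1.2e-07). In 8C replicate 2 CPEB1 had 32.7 CPM, and without that embryo the mean after EGA was 0.794 ± 1.39 CPM (SD, n = 9). RPS6KA1, a kinase downstream of MAP kinase, had 1.09 CPM before EGA, or 0.376 CPM without 2C replicate 1, and 34.5 CPM after it, and rose by 3.67 (limma adjusted p = 2.3e-04). PPP3CB, a catalytic subunit of calcineurin, was too low for the model of the periods and fell by 4.03 from 4C to 8C (limma adjusted p = 0.0010), and by 4.03 without 8C replicate 1 (0.0054) or 8C replicate 2 (0.0032).

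Of the Polo and Aurora kinases and their cofactors, 1 of 8 was higher and 4 lower after EGA (median -1.06). Scaled to total reads these counts were the same (median -0.59). PLK4, the kinase of centriole duplication, rose by 2.66, from 4.23 to 36.0 CPM (limma adjusted p = 8.4e-05). AURKC, the meiotic Aurora kinase, fell by 2.88, from 59.9 to 11.8 CPM (limma adjusted p = 9.6e-06), and CDCA8, which anchors Aurora kinases at centromeres, fell by 2.89, from 81.1 to 17.9 CPM (limma adjusted p = 5.4e-05).

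Of the APC/C subunits, their E2 enzymes and inhibitors, 4 of 13 were higher and 2 lower after EGA (median -0.35), and scaled to total reads 5 were higher by limma and both lower calls were lost (median 0.08). UBE2C, the E2 enzyme that starts ubiquitin chains for the APC/C, rose by 2.23, from 9.94 ± 6.57 to 65.6 ± 35.1 CPM (SD, n = 6 and 10; limma adjusted p = 4.6e-05), and by 2.47 from 4C to 8C (limma adjusted p = 0.0029), or 2.52 without 8C replicate 1 (0.0129) and 2.42 without 8C replicate 2 (0.0099). CDC27 fell by 1.35 (limma adjusted p = 0.0050, but 0.0926 scaled to total reads), and CDC23, another subunit, had a change of -1.41 (limma adjusted p = 0.081, over a range of 0.0247 to 0.236). Of 4 spindle checkpoint genes 2 were lower after EGA (median -0.50), MAD2L1 by 1.59 (limma adjusted p = 0.0019) and TTK by 1.55 (limma adjusted p = 0.0054, but 0.0683 scaled to total reads), while BUB3 had a change of 0.82 (limma adjusted p = 0.063, over a range of 0.0126 to 0.188). Scaled to total reads 1 of these 4 was higher and 1 lower (median -0.04).

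**Figure D4:**
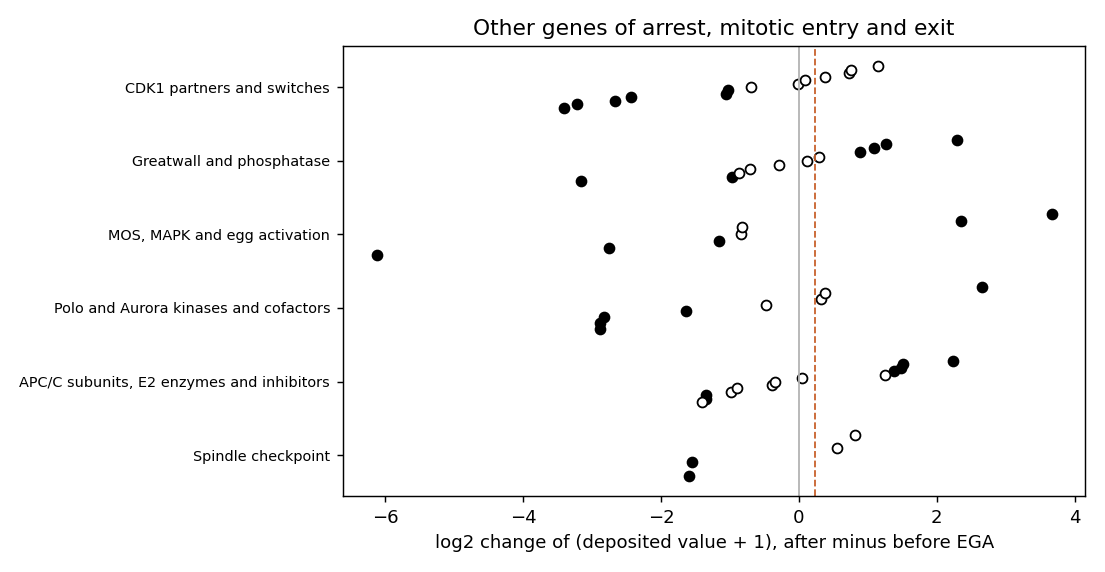
Change in log2(deposited value + 1), after minus before EGA, of the other genes of the 6 lists with enough reads for the test, 1 point a gene. Filled points passed an adjusted p of 0.05 by limma, and the dashed line is the median of all loci, 0.23. CPEB1 at -6.13 and RPS6KA1 at 3.67 are the outermost points.

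As a description, loci with a name were ranked by Pearson's r with each of the 9 genes over the 16 samples, on log2(deposited value + 1). Samples share a stage and a side of EGA, so high r is shared by many loci. For MOS the closest were DYNC1I1 (r = 0.990), FBXO43 (0.985) and MEF2C (0.978), and for FBXO43 they were FAM163A (0.997), EEF2K (0.994) and DYNC1I1 (0.990). For WEE2 they were DSCAML1 (0.984), FAM81B (0.982) and GRM8 (0.981), and for WEE1 ITGA5 (0.977), ANXA6 (0.975) and ZFAND2B (0.972). AURKA was closest to MAPKAP1 (0.964), NO66 (0.963) and TAX1BP1 (0.954). The remaining genes had no neighbour at r of 0.9 or more: PLK1 was closest to AMBRA1 (0.898), HELB (0.849) and ASXL2 (0.840), CDC20 to CDC42EP1 (0.861), ALDH3A2 (0.853) and ERBB3 (0.847), CDC25C to GNG12 (0.844), INPPL1 (0.843) and TBC1D7 (0.842), and CDK1 to GHITM (0.829), PCDHA13 (0.748) and ZNF638 (0.744). Among the genes themselves MOS, FBXO43, WEE2 and AURKA correlated with each other at r of 0.836 to 0.985, and WEE1 with them at -0.772 to -0.903.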

How the data were processed

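Per the labels, RNA of single oocytes and embryos was amplified and sequenced. After trimming and mapping, the authors counted reads per locus and deposited a signal, which is that count over the size factor of the sample. The submitters' processing notes name cutadapt, FastQC, TopHat, Cufflinks and HTSeq, without versions. The genome build, strand setting and rule for multi-mapped reads are not given in the sources used here, so reads of near-identical or overlapping genes could not be told apart. Divided by the smallest value of its sample, every value above 0 came out whole (100%, tolerance 0.02), which recovered the reads. Amplified molecules were not told apart, so floors cover counting error only.

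The main test was limma 3.58.1 (R 4.3.3) with a trend on log2(deposited value + 1), after edgeR's filterByExpr on recovered reads, which kept 9670 loci for 8 stages and 6910 for the 2 periods (MOS and FZR1 fell out of the latter). edgeR 4.0.16 and DESeq2 1.42.0 on recovered reads were alternatives, beside other scalings, pseudocounts, no filter, a replicate block and each sample left out. Permutation tests ran in Python 3.11.15 with scipy 1.17.1. The limma script was run on simulated data with changes planted only in loci with more reads, which says nothing about genes with few reads. Samples with the same replicate number were different oocytes or embryos.

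The members, lists and tests were chosen with earlier results of these data known. Named are all members, the 3 genes of each list with the smallest adjusted p over the stages, and the 3 named loci with the highest r to each member.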

Additional observations from a re-analysis of the deposited data

Results flagged for a closer look

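Each gene's samples were screened within a period for a value set apart from the rest by Dixon's ratio of its gap to the whole range on the log2 scale. Of 19 such groups with any spread 5 held a value past the 95% limit. Chance flags about 1 in 20 groups of normally distributed values, but this rate does not hold where most samples are at 0, as for MOS, FBXO43 and FZR1 after EGA, where a sample with 2 to 4 reads stands apart by construction. All 5 were 8C embryos among the 10 samples after EGA. In 8C replicate 2 MOS stood at 2.89 CPM (gap over range 0.779), FBXO43 at 3.85 CPM (1, since the other samples were at 0) and AURKA at 171 CPM (0.496), each above the other samples. In 8C replicate 1 PLK1 stood at 0 CPM, below the others (0.604), and FZR1 at 2.47 CPM, above them (0.50), which was 2 reads. The summed oocyte marker level of 8C replicate 2, 1464 CPM, was also above that of 8C replicate 1, 26.0 CPM. Whether it accounts for these values was not tested.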

How the results depend on the processing

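The number of the 10 genes changed over the stages (7), before against after EGA (5) and the WEE1 to WEE2 difference (12.84) stayed within 1.5 times or on the same side of the threshold in every alternative run. The 7 calls between neighbouring stages became 3 by edgeR and 1 with the 2 stages alone, and 4 to 9 when a sample was left out, with 4 without 4C replicate 1 or 4C replicate 2. The 2 calls between MII and 4C became 0 to 2 when a sample was left out, 0 without MII replicate 2, 4C replicate 1 or 4C replicate 2 and 1 without MII replicate 1, BL replicate 1 or BL replicate 2. The cause was not tested, except that fewer samples are left. Of 773 values under alternatives, of single genes among the 10 and of calls counted over the lists, 715 kept direction and side of the threshold. Of the others 55 lost the call, 3 gained it and none turned its direction. Medians and single genes of the lists are not among these values, and some turned. Scaled to total reads the list median before against after EGA went from -0.43 to 0.03. From 4C to 8C CDCA8 went from -1.67 to 0.10 and RPS6KA1 from 1.05 to -0.47 when 1 sample was left out.

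Over all loci the calls were 3560 from 4C to 8C (1297 with the 2 stages alone to 3707 without 8C replicate 2), 4619 before against after EGA (4390 to 7075 without the filter), 839 from MII to 4C (29 without 4C replicate 1 to 1187 without 8C replicate 1), 137 from MII to 2C (0 with the 2 stages alone to 551 scaled to total reads, of which 541 higher, against 116 higher in the main test), 83 from 8C to 16C (0 to 758 without 8C replicate 1), 10 from 16C to EM (0 to 114 by DESeq2) and 427 from CM to BL (0 to 639 with a pseudocount of 5). From 2C to 4C and from EM to CM there were 0 by limma, with 441 and 485 loci at an unadjusted p below 0.05, 0 and 0 by edgeR and 1 and 5 by DESeq2. Over the alternatives these counts were 0 to 14 (without the filter) and 0 to 5, with 10 without 2C replicate 2 and 4 without CM replicate 2. From 4C to 8C edgeR called 1656 loci higher and 1083 lower, against 1711 and 1849.

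Replicate numbers did not pair samples: of 28 pairs of stages 1 had a correlation of deviations above 0.1, and the median was 0.004. With the replicate block the calls of the 10 genes were 7, 7, 2 and 5, as without it, and over all loci 44 in place of 83 from 8C to 16C and 5 in place of 10 from 16C to EM. With the numbers of 2C crossed, chosen after seeing the data since MII and 2C correlated at -0.253, 122 loci were called from MII to 2C, against 109 with the block as labelled. Depth limits FZR1, MOS after EGA and PLK1 in MII, where no more than 3 reads were found in a sample. Leaving out both 8C embryos was also chosen after seeing the data.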
